A study of Mus musculus with 8 samples.

Results

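The untreated mouse liver transcriptome was described from 3 of the 8 libraries of a liver RNA-seq series. The 3 libraries, called replicates 1, 2 and 3 after their numbers in the labels, came from the liver of wild type C57BL/6J mice with no treatment. The other 5 libraries of the series came from C57BL/6J mice given TAZ S89A under the EF1a promoter by HTVI, with CCl4 30 times, 3 times a week for 10 weeks, and were not analysed here. The labels give neither the age nor the sex of the mice, and nothing in them ties a library to its own animal, so the spread below may be partly technical. All 35204 gene symbols of the deposited table were used, and with 1 group there was no contrast and no test: every comparison below is a description of 3 libraries.

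The liver is built mainly of hepatocytes, which secrete most plasma proteins, make urea, glucose, bile acids and lipoproteins, and detoxify drugs and hormones. Sinusoidal endothelial cells, Kupffer cells (the resident macrophages), stellate cells (which store vitamin A) and cholangiocytes (which line the bile ducts) make up most of the rest. Hepatocyte genes are expressed unevenly along the lobule, from the periportal to the perivenous end, and many of them follow the time of day, feeding and, in mice, the pulses of growth hormone that differ between the sexes. Major urinary proteins, carriers of pheromones made in the liver and excreted in urine, are a product of the male mouse liver in particular.

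Values in the table are gene counts divided by scaling factors, so that a gene's share of a library's summed value (its share of signal) also grows with the length of its transcripts. Levels were therefore also given per length, as the value divided by the length of the gene's principal transcript and scaled to a sum of 1000000 in each library, written TPM. These TPM values were computed here from the deposited values. Shares and levels in TPM were taken within a library and do not depend on the scaling factor. They are parts of a fixed total, so genes that take more of a library lower the figures of all its other genes. The SDs of shares and levels carry this too. The summed values were 35.1, 30.0 and 29.8 M in replicates 1, 2 and 3. The most frequent non-zero value, taken as the value of 1 read, was 1.88, 1.20 and 1.20, which put the depth at about 18.6, 24.9 and 24.9 M reads. Replicate 1 thus had the fewest estimated reads and the largest normalised total. Estimated reads cover counting error only, and the count of low values (under 10) that came within 0.03 of a whole read was 55.5% to 57.5%.

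A small number of genes held most of the signal. The 10 genes with the largest values took 28.5%, 23.0% and 22.9% of the signal in replicates 1, 2 and 3, a mean of 24.8% ± 3.22 (SD, n = 3). The 100 largest took 61.3%, 54.5% and 54.4%, a mean of 56.7% ± 3.98 (SD, n = 3), or 54.4% over replicates 2 and 3 alone. The 1000 largest took 80.1% ± 1.84 (SD, n = 3). In replicate 1, 39 genes made up 50% of the signal, against 69 and 70 genes in replicates 2 and 3. To reach 90% took 2413, 2882 and 2862 genes, and to reach 99% took 8177, 8506 and 8464. With major urinary protein genes and mitochondrially encoded genes both left out, the 100 largest of the remaining genes took 42.4%, 43.5% and 42.6%, and 50% of the signal took 182, 172 and 184 genes.

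**Figure D1:**
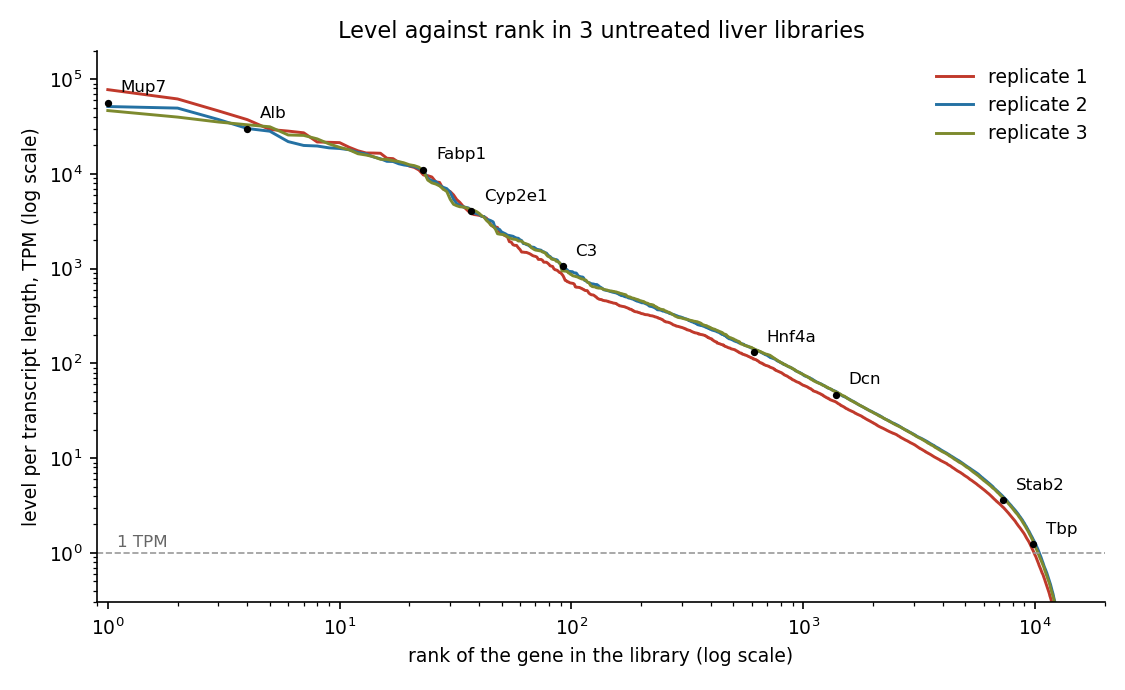
Level per transcript length (TPM, log scale) against rank (log scale) of the genes with a mean value of at least 10, a line for each of the 3 untreated libraries, with the mean level of 9 named genes as black points. The line of replicate 1 starts above the others, with Mup7 at 77700 TPM, and lies below them over most of the lower ranks.

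Levels per length spanned several orders of magnitude. By the mean of the 3 libraries, 23 genes stood at 10000 TPM or more, 92 at 1000 or more, 770 at 100 or more, 4262 at 10 or more and 10270 at 1 or more. Mup7, a major urinary protein gene, had the highest level, with 77700, 51558 and 39872 TPM in replicates 1, 2 and 3. Mup22 followed with a mean of 52765 TPM, and mt-Co1, the mitochondrial gene for a cytochrome c oxidase subunit, with 31323 ± 3633 (SD, n = 3). Albumin (Alb, chromosome 5), the main carrier protein of plasma, stood 4th at 21436, 37608 and 31511 TPM, and ranked 10th, 3rd and 5th within the 3 libraries. The pseudogene Gm29216 ranked 10th at 20058 TPM. It resembles a mitochondrial gene, and reads of such copies cannot be assigned with certainty. Apart from Gm29216 and the major urinary protein genes, the next nuclear genes after Alb were apolipoproteins, which carry lipids in plasma: Apoe at 17003 ± 3355 TPM, Apoa2 at 16036 ± 3585, Apoa1 at 11638 ± 1814 and Apoc1 at 11267 ± 1723 (SD, n = 3). Fabp1, the fatty acid carrier of the hepatocyte cytoplasm, was the highest gene for a protein that is neither secreted nor encoded in mitochondria, at 11153 ± 1273 TPM.

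The order of the most abundant genes was similar but not fixed. Of the 110 genes among the 100 largest values in any library, 92 were among them in all 3, and of the 104 genes among the 100 highest levels in any library, 94 were. At the very top the sets overlapped less: 6 of 14 genes were among the 10 highest levels in all 3 libraries. Mup15 ranked 11th by level in replicate 1 and 40th and 49th in replicates 2 and 3, and Mup9 ranked 26th, 76th and 101st. Fabp1 held ranks 23, 22 and 21, and Serpina3k, a plasma protease inhibitor, ranks 28, 28 and 27. The choice of transcript length also moved genes: by the median length of all annotated transcripts, Alb ranked 1st, C3 25th in place of 92nd, and Trf 15th in place of 32nd. The median transcript of Alb is 331 bases long against 2034 for the principal one, that of C3 608 against 5136 and that of Trf 775 against 2571. Of the 25 genes that led by the median length, 23 were still among the 25 highest by each of the other lengths.

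Grouped by function with 34 ordered rules, the genes in a category held 77.2%, 72.8% and 72.9% of the signal. The 8 categories of secreted plasma and urinary proteins held 42.0%, 34.0% and 31.4%. Without the major urinary proteins, the other 7 held 17.9%, 21.5% and 20.8%. The 11 categories of metabolic enzymes held 14.3%, 17.9% and 17.8%. By share, replicate 1 was lowest in both of these last groups and replicates 2 and 3 lay close together. Their summed values need not follow this order. Major urinary proteins took 24.1% of the signal in replicate 1, against 12.5% and 10.6% in replicates 2 and 3.

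**Figure D2:**
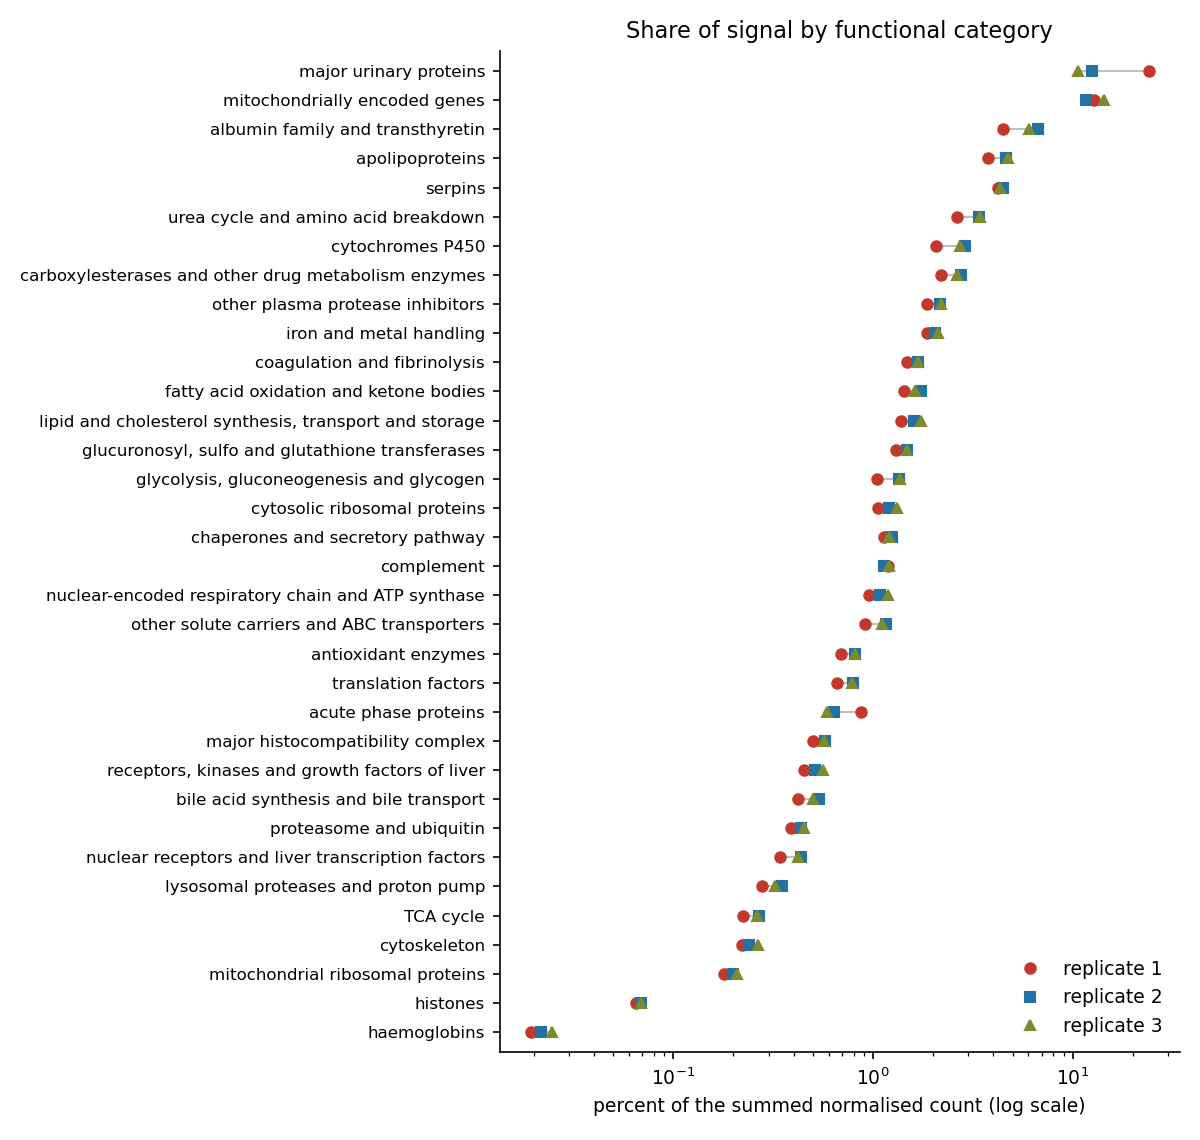
Percent of the summed normalised count (log scale) in each of 34 functional categories, with a point for each of the 3 untreated libraries and a grey line over their range. Replicate 1 stands to the right of the other libraries for major urinary proteins (24.1% against 12.5% and 10.6%) and acute phase proteins (0.869% against 0.638% and 0.588%), and to the left for most of the other categories.

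Among secreted proteins, major urinary proteins took 24.1%, 12.5% and 10.6% of the signal in replicates 1, 2 and 3, a mean of 15.7% ± 7.28 (SD, n = 3), or 11.6% over replicates 2 and 3. Their summed value differed 2.66-fold between the highest and the lowest library. The albumin family and transthyretin took 5.75% ± 1.13, of which Alb alone took 4.37% ± 0.988. Ttr, which carries thyroid hormone and the retinol-binding protein Rbp4, took 0.576%, and Gc, the vitamin D carrier, 0.548%. Apolipoproteins took 4.38% ± 0.531, with Apoe at 1.71% and Apoa1 at 0.862%. Apob, the long structural protein of very low density lipoprotein, took 0.256% of the signal but stood at rank 331 by level, at 256 TPM. Serpins, mostly protease inhibitors of plasma, took 4.35% with an SD of 0.119, led by Serpina1e (7847 TPM), Serpina1c (7818) and Serpina3k (7212). By share this was the smallest spread relative to the mean among these leading groups. By summed value it was not, with a 1.14-fold difference between the highest and the lowest library. Apolipoproteins differed 1.07-fold and the albumin family and transthyretin 1.28-fold. The Serpina1 genes are near-identical copies, so their individual values are uncertain. The other plasma protease inhibitors took 2.08% ± 0.180, led by Ahsg (fetuin A, 5851 TPM). Coagulation and fibrinolysis genes took 1.62% ± 0.115, with the fibrinogen chains Fgg, Fga and Fgb at 2022, 1532 and 1184 TPM. Complement genes took 1.18% ± 0.0382, and C3, their central component, held 0.389% of the signal.

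All 21 major urinary protein genes with a mean value of at least 10, of 22 in the table, were highest in replicate 1, and 19 of the 21 were lowest in replicate 3. Of all 13284 genes with such a mean, 32.4% were highest in replicate 1 and 33.3% lowest in replicate 3. The major urinary protein genes lie in a cluster on chromosome 4 between bases 59964294 and 62150863 of GRCm38. Their excess in replicate 1 was uneven. Mup3 held 339659, 309070 and 314376 in replicates 1, 2 and 3, a value in replicate 1 that was 1.09-fold the mean of the others. Mup9 held 190857, 27078 and 15349, which was 9.0-fold. Over the 21 genes the median was 2.80-fold, and 14 genes exceeded 2-fold. Mup15 and Mup17 resembled Mup9, with 8.07-fold and 7.87-fold, and Mup21 and Mup20 were nearer to Mup3, with 1.21-fold and 1.72-fold. The coding sequences of many members are almost identical, so the division of reads among them is uncertain, while their sum is less so.

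**Figure D3:**
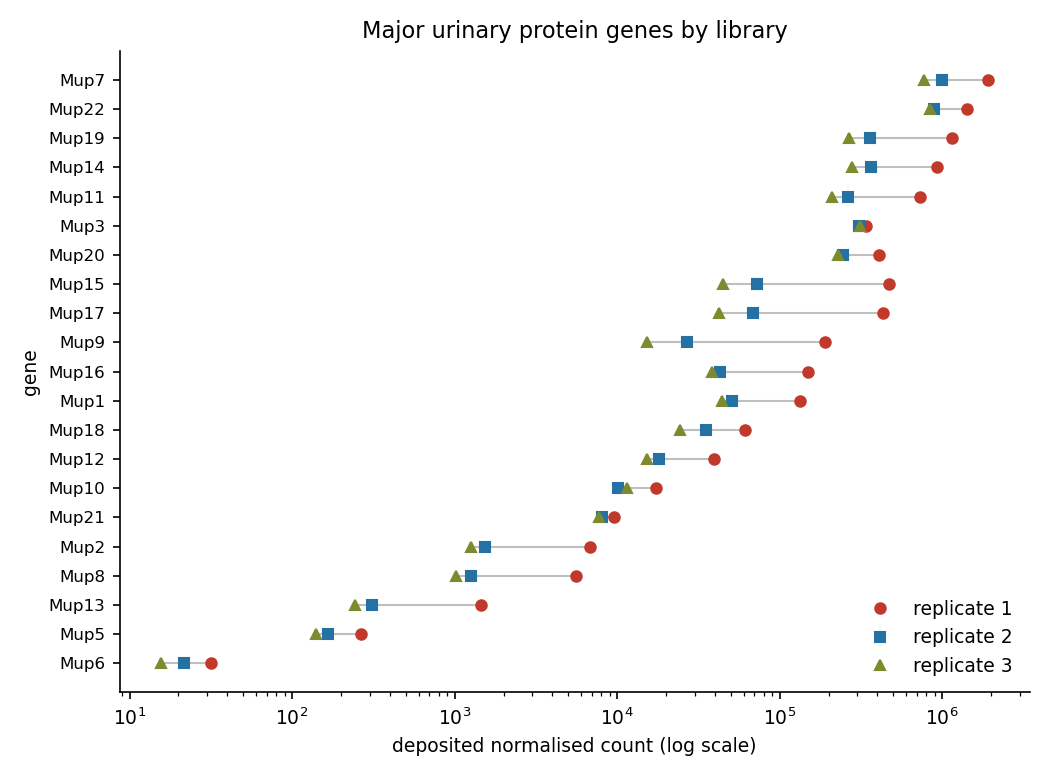
Deposited normalised count (log scale) of the 21 major urinary protein genes with a mean of at least 10, a point for each untreated library. The point of replicate 1 is the highest in every row, from 1.09-fold the mean of the other libraries for Mup3 to 9.0-fold for Mup9.

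Mitochondrially encoded genes, 13 in all, took 12.8%, 11.7% and 14.3% of the signal, a mean of 12.9% ± 1.32 (SD, n = 3). These genes code for subunits of the respiratory chain and ATP synthase. The 3 subunits of complex IV took 5.82% ± 0.657, the 7 of complex I 3.96% ± 0.393, the 2 of ATP synthase 1.66% ± 0.145 and mt-Cytb of complex III 1.52% ± 0.136. By share, replicate 3 was highest and replicate 2 lowest for each of the 4 complexes. The summed values of the 13 genes were 4492624, 3513572 and 4273158, highest in replicate 1 and lowest in replicate 2. The nuclear genes of the same machinery (101 in the table) took 1.07% ± 0.118, led by Atp5b at 559 TPM. The pseudogenes Gm29216 and Gm28661 together took 0.942% ± 0.185. Gm28661 held deposited values of 40372, 127553 and 49872. It was thus highest in the library where mitochondrial genes were lowest by share and by summed value.

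Among metabolic enzymes, those of the urea cycle and amino acid breakdown took 3.15% ± 0.452 of the signal, and all 76 genes of the category were on by the threshold used below. Ass1, which joins citrulline and aspartate, stood at 1145, 2021 and 2051 TPM, Arg1, which releases urea, at 1174 ± 230 and Cps1, which makes carbamoyl phosphate, at 350, 590 and 614. For Ass1 and Cps1, the level in replicate 1 lay well below that in the other libraries, which were close to each other. The deposited values of Ass1 lay nearer together, at 51915, 71141 and 72958. Cytochromes P450 took 2.07%, 2.88% and 2.73%, led by Cyp2e1 (4020 ± 748 TPM), which oxidises ethanol and many solvents, and Cyp3a11 (1930, 3893 and 3240), a main enzyme of drug oxidation. Carboxylesterases and other drug metabolism enzymes took 2.52% ± 0.297, and the transferases that conjugate glucuronate, sulfate or glutathione 1.42% ± 0.0985, with Mgst1 at 4209 ± 440 and Gstp1 at 3571 ± 54.1 TPM. Fatty acid oxidation and ketone body genes took 1.60% ± 0.160, with Phyh at 1961 TPM. Lipid and cholesterol genes took 1.58% ± 0.179, glycolysis and gluconeogenesis 1.25% ± 0.180 (Gapdh 1312 ± 237), antioxidant enzymes 0.770% (Gpx1 1649, Cat 1498) and the TCA cycle 0.252%.

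Other cellular functions held small shares. Iron and metal handling took 2.01% ± 0.128, with Trf (transferrin) at 5045 ± 639 and the ferritin light chain Ftl1 at 3996 ± 359 TPM. Cytosolic ribosomal proteins took 1.19% ± 0.132, and their leading gene by level, Rplp1, stood at 711 TPM, below Fabp1 or the main plasma proteins. Chaperones and the secretory pathway took 1.19% ± 0.0596, proteasome and ubiquitin genes 0.425%, mitochondrial ribosomal proteins 0.195%, histones 0.0676% and haemoglobins 0.0219%. Nuclear receptors and liver transcription factors took 0.40% ± 0.0510. Hnf4a, a defining regulator of hepatocytes, held 114, 133 and 148 TPM and rank 615. Egfr, the receptor for epidermal growth factor, held 65.1, 61.2 and 98.5 TPM. Genes in no category took 25.7% ± 2.5, among them Car3, a muscle and liver carbonic anhydrase, at 2723 and Azgp1, a secreted lipid-mobilising glycoprotein, at 1369 TPM.

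By chromosome, chromosome 4 took 27.0%, 15.9% and 14.1% of the signal, where the major urinary protein genes lie. The mitochondrial genome took 12.9%, chromosome 5, which carries Alb, 8.33%, and chromosome 7, with Apoe and Apoc1, 6.36%. The X chromosome took 1.05% ± 0.0931 and the Y chromosome 0.0209%. Protein-coding genes took 98.5% of the signal, and the table holds 41 genes of noncoding RNA classes. The highest of these by the fixed rule were Ptpmt1, Tmem134, Ifi30, Thoc2l and Snhg16, of which the first 3 are protein genes whose current annotation is a processed transcript.

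A gene was called on when its level was at least 1 TPM in all 3 libraries, with the median length of its annotated transcripts as the length. Of 35204 symbols, 9956 were on (28.3%), 953 were at that level in 1 or 2 libraries and 8240 had a value above 0 but were below it in all. In all 3 libraries 15972 symbols (45.4%) were listed at 0, which in such a table can also be a failed estimate. A further 3827 were listed at 0 in 1 or 2 libraries. Among 21881 protein-coding genes, 9756 (44.6%) were on and 4879 were listed at 0. With the length of the principal transcript, 9709 genes were on in all 3. By the mean level of the 3 libraries per median length, the genes nearest to 1 TPM from below were Gramd4, Ank2, Phtf1, Pdgfc and Pfn2, and those nearest from above Col5a1, Kbtbd3, Gm28036, Igf2bp2 and Noxo1. A mean above 1 TPM does not make a gene on: Gm28036 held 12.2, 60 and 0 in replicates 1, 2 and 3. Pfn2 held 47.4, 57 and 42.2.

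Gene families differed in how many members were on, beside 44.6% of all protein-coding genes. Solute carriers (49.2%) and zinc finger genes (53.4%) lay nearest to that share. Of cytosolic ribosomal protein genes 81 of 84 were on, of proteasome subunits 37 of 40, of nuclear receptors 33 of 49, of cytochromes P450 56 of 99, of zinc finger genes 211 of 395 and of solute carriers 191 of 388. Of 1137 olfactory receptor genes, which detect odours in the nose, 6 were on and 657 were listed at 0. Of 352 vomeronasal receptor genes 1 was on, of 53 keratins 3, and of 38 taste receptors, 39 Hox genes and 13 interferon alpha genes 0. Krt18, a keratin of hepatocytes, had the highest level of its family.

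Promoter sequences of RefSeq (GRCm38.p6, 250 bases before to 50 after the start) matched 17125 of the genes, and were read to set the abundance ranking beside short motifs. The RefSeq start equalled that of the principal transcript for 6012 of them and lay within 50 bases of it for 12021. Motif positions, and rates in a narrow window, depend on the start used. The 100 bases before the RefSeq start are printed 5′ to 3′ for 6 genes: Alb and Mup19 as abundant genes, Saa1 and Saa2 as the pair that differed most between libraries apart from Moxd1, and Gjb1 and Cbx1 as genes of nearly constant value. Capitals mark TATAA on the sense strand, and on either strand the CCAAT box, the HNF1 half-site letters GTTAAT and the GC box GGGCGG.
Alb, chr5:90460770-90460869, plus strand: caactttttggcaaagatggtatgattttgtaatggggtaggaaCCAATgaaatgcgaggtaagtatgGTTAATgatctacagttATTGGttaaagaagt
Mup19, chr4:61782225-61782324, minus strand: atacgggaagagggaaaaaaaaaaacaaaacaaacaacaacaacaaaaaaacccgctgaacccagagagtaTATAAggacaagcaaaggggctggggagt
Saa1, chr7:46742981-46743080, minus strand: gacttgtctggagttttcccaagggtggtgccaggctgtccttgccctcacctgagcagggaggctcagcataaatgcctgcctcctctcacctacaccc
Saa2, chr7:46751733-46751832, plus strand: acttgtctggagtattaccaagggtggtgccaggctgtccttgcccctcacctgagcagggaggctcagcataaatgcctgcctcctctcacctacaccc
Gjb1, chrX:101383632-101383731, plus strand: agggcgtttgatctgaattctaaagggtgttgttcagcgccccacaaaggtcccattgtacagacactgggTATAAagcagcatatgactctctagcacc
Cbx1, chr11:96789035-96789134, plus strand: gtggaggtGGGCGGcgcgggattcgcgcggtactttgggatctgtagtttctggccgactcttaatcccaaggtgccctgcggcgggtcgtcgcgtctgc
Mup19 and Gjb1 held TATAA 29 bases before the start, Alb held GTTAAT 32 bases before the RefSeq start, and Cbx1 held GGGCGG. Saa1 and Saa2 held none of the 4 motifs in this stretch and shared an unbroken run of 56 bases.

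Across the ranking, TATAAA on the sense strand between 40 and 20 bases before the start was found in 7% of the 100 most abundant genes with a promoter, 4.80% of the top 500, 2.78% of all 17125 promoters, 1.26% of the genes that were on and 6.46% of protein-coding genes listed at 0. The shorter TATAA, which every TATAAA contains, was found in 15% of the top 100, against 4.44% of all promoters, 2.03% of those on and 9.85% of those at 0. Among 20 promoters of a list of housekeeping genes, 3 held TATAA (15%) and 2 held TATAAA (10%) in the same window. GTTAAT on either strand of the 300 bases was found in 19% of the top 100, against 6.20% of all, and TTGCNNAA, the form of a C/EBP site, in 21% against 10.0%. GGGCGG was found in 30% of the top 100, 65.8% of the genes on, 47.4% of all and 15.7% of those at 0. CCAAT was found in 44% of the top 100 and 38.6% of all. The top 100 and top 500 here were taken among the genes with a matched promoter. Of that top 100, 9 were major urinary protein genes, which share descent, and among the 100 most abundant left without them TATAAA was found in 8%. A match is a description of letters and not of a bound site.

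The labelled tissue was checked against marker lists of 26 cell types. All 12 hepatocyte markers were on in every library and their levels summed to 61114 ± 13086 TPM (SD, n = 3). Sinusoidal endothelial markers were on for 11 of 14 (sum 66.4 ± 29.5 TPM), Kupffer cell markers for 12 of 16 (320 ± 34.5), stellate cell and fibroblast markers for 10 of 16 (132 ± 52.4) and cholangiocyte markers for 6 of 13 (73.8 ± 4.63). Of all protein-coding genes 44.6% were on, and the cholangiocyte count lay near that share. In bulk tissue, fewer cells of a type and less RNA per cell cannot be told apart. The leading gene of the sinusoidal list by level was Clec4g, a lectin of these cells, at 17.5 TPM. Clec4f, a Kupffer cell lectin, stood at 15, the complement gene C1qa at 17.1 TPM, while C6, a complement gene on the Kupffer list, stood at 125 and made up the largest part of that sum, ahead of Nr1h3 at 45.5 and Id3 at 39.9. On the stellate list Ecm1 stood at 47.5, the proteoglycan Dcn at 46.6 and Colec11 at 12.3 TPM. Spp1 (osteopontin), on the cholangiocyte list, reached 53.7 TPM, while Krt19, Epcam and Sox9 stood at 2.0, 1.29 and 1.36.

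Markers of blood and of neighbouring organs ranged widely. Erythroid markers were on for 7 of 11 and their levels summed to 558 ± 84.4 TPM (SD, n = 3), more than the Kupffer, stellate or sinusoidal sums. Of 12 neutrophil markers none was on and 4 (Camp, Ly6g, Mpo and Ngp) were listed at 0 in all libraries. None of the natural killer cell, mast cell, mesothelial, kidney and germ cell markers was on, and 7 of 9 mast cell markers were at 0. T cell markers were on for 1 of 12. By principal length Cd4 stood at 0.72 and Cd3d at 0.385 TPM, while on was called by median length. B cell markers were on for 2 of 12, with Igkc at 8.20 and Ighm at 3.85 TPM. Of 14 exocrine pancreas markers, 1 was on, Cela1 at 21.7 TPM, and Cpa1, Pnlip, Prss1 and Prss2 were at 0. Of 10 kidney markers 7 were at 0, Kap and Umod among them. The haemoglobin genes Hbb-bs and Hba-a2 stood at 203 and 151 TPM and Alas2 at 61.0, while Slc4a1, a red cell membrane gene, was at 0.0256. The dendritic cell markers were on for 2 of 10 and summed to 150.2 TPM, of which Bst2 made up 145.8, and the intestine and stomach markers were on for 2 of 12 and summed to 85.6 TPM, of which Fabp2 made up 64.5. Other list sums were likewise carried by 1 or 2 genes: Car3 made up most of the adipocyte sum, and Xbp1 (110 TPM) and Sdc1 (46.6) most of the plasma cell sum, in which Jchain stood at 1.25.

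Genes linked to sex were read because the labels do not give it. The Y-linked genes Ddx3y (834, 1077 and 1063), Eif2s3y (1533, 1390 and 1377), Kdm5d (623, 581 and 675) and Uty (403, 335 and 372) were on in each. RNA of male origin was thus present in each library. Of the 5 genes on the sex chromosome list these 4 were in the table, and a part from female mice was not tested. Of 22 male-biased liver genes 21 were on. Among them Cyp2d9 stood at 43874, 43782 and 43037 and Elovl3, an enzyme that lengthens fatty acids, at 10216, 7064 and 5689 in replicates 1, 2 and 3. Of 29 female-biased genes 8 were on, and Cyp2b13 was listed at 0 in all. Cyp2c40 held 154, 260 and 445, Fmo2 122, 245 and 216, and Cyp17a1 55.4, 98.0 and 93.0. Replicate 1 was thus lowest for each of these 3 female-biased genes.

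Genes of lobule zones, feeding and time of day were on in large part. Perivenous genes were on for 16 of 19, with Cyp2e1 highest and Glul, the glutamine synthetase of the last perivenous cells, at 322 ± 27.1 TPM (SD, n = 3). Periportal genes were on for 18 of 19, with Alb by far the highest, followed by Ass1 and Arg1, and with Cyp2f2 at 842 TPM. Fasting-induced genes were on for 18 of 20 and feeding-induced genes for 17 of 18. Pck1, the rate-limiting enzyme of gluconeogenesis, held 50801, 69990 and 52818, and Scd1, which desaturates fatty acids, 43337, 59403 and 63289. Cyp4a14, a target of the fasting-activated receptor PPAR alpha, held 995, 4594 and 5758. All 18 core clock genes were on. Dbp, an output gene of the clock, held 912, 2048 and 1741, Per1 248, 740 and 471, Nr1d1 4154, 4638 and 4833, Arntl (Bmal1) 217, 151 and 182 and Npas2 56.1, 23.5 and 64.9. Replicate 1 was lowest for Dbp, Per1 and Nr1d1 and highest for Arntl. Of 20 immediate early genes, which rise within minutes of a stimulus such as handling of tissue, 15 were on. Zfp36 (192 TPM), Junb (107) and Ier2 (105) were at the head. Fos stood lower at 31.5 TPM, with deposited values of 1236, 1778 and 1407. Of 25 cell cycle genes 8 were on, and Mki67, the common proliferation marker, stood at 0.178 TPM, and of 16 fetal liver and tumour genes 3, with Afp at 0.628 TPM.

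The spread between libraries was taken as the coefficient of variation (CV, the SD as a percentage of the mean) of the 13284 genes with a mean value of at least 10. The median CV was 12.1%, with quartiles of 6.98% and 22.6%. Of these genes 5403 (40.7%) had a CV under 10% and 798 (6.01%) one over 50%. By mean value the median CV fell from 33.3% for genes of 10 to 50 to 17.3% for 50 to 200, 9.77% for 200 to 1000 and 7.46% for 1000 to 10000, and was 7.71% for 10000 to 100000 and 10.1% for the 43 genes above 100000. Read counting alone, from the value of 1 read, gave 25.4%, 11.6%, 5.63%, 2.73%, 0.857% and 0.244% in the same bins. Across genes, which are not independent, Spearman correlations were 0.983, 0.985 and 0.987 for replicates 1 and 2, 1 and 3, and 2 and 3. Pearson correlations of log2(value + 1) were 0.972, 0.971 and 0.978, and the median absolute log2 difference was 0.22, 0.20 and 0.20.

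**Figure D4:**
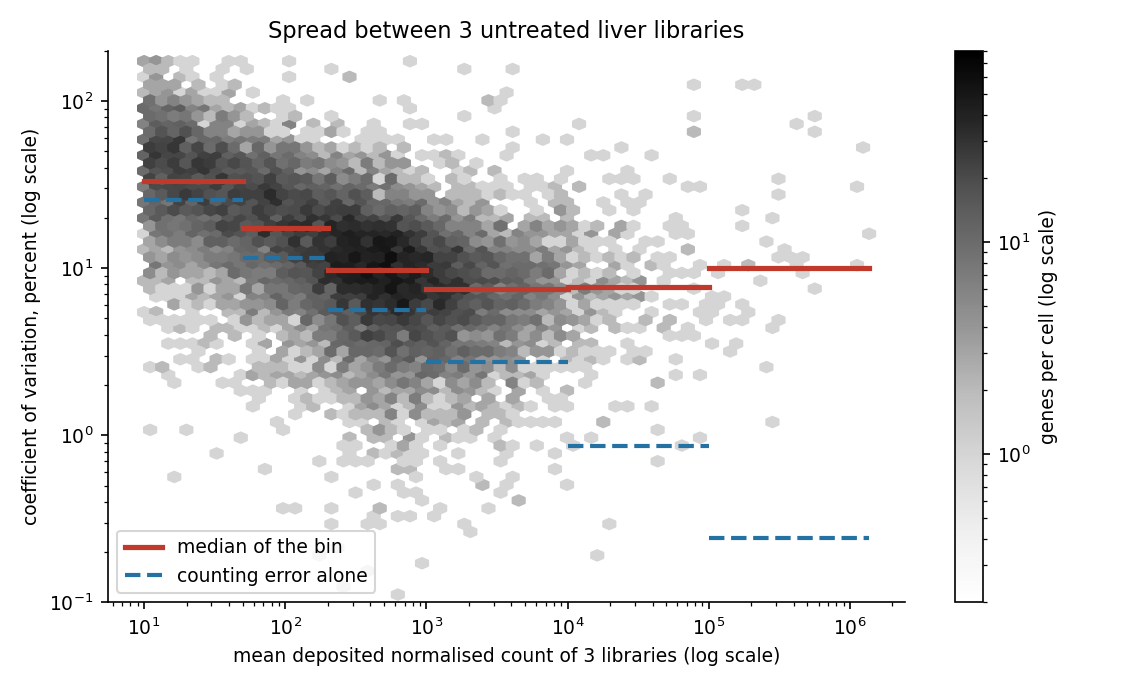
Coefficient of variation over the 3 untreated libraries (percent, log scale) against mean normalised count (log scale) of the 13284 genes with a mean of at least 10, in grey by number of genes, with the median of each bin in red and the value from read counting alone as a blue dashed line. The median lies near counting error below 50 (33.3% against 25.4%) and far above it beyond 100000 (10.1% against 0.244%).

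Genes of nearly constant value had CVs below 0.3%. Cbx1, a protein of closed chromatin, held 685.8, 685.6 and 687.0, Anapc4, a subunit of the anaphase-promoting complex, 361.7, 360.6 and 361.2, and Gjb1 (connexin 32), the main gap junction protein of hepatocytes, 16138, 16193 and 16188. Pigc, Tysnd1, Tbpl1, Lrpprc, Tbc1d24, Snx1 and Pnp completed the 10 smallest among genes with a mean of at least 200. These CVs are below what counting error gives at such values, so with 3 libraries they describe a near coincidence of values. The 26 housekeeping genes had a median CV of 5.94%.

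The largest CVs belonged to a short list. Moxd1, a copper monooxygenase, held 2492 in replicate 1, 32.5 in replicate 2 and 2.40 in replicate 3. Saa2 held 4921, 225 and 80.5 and Saa1 10481, 633 and 388. Both code for serum amyloid A, an acute phase protein, and as near-identical neighbours they may share reads. Dmbt1, a mucosal glycoprotein, held 94.8, 10.7 and 728, and Tmem254c 97.4, 788 and 24.8. Orm2, an acute phase glycoprotein, held 1679, 300.5 and 449, and Rgs16, a regulator of G protein signalling, 428, 1579 and 3078. Of the 15 genes with the largest CV, 8 were major urinary protein genes. Replicate 1 was the library farthest from the others for 13 of the 15, and replicate 2 for 2.

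Each library had genes that stood more than 2-fold apart from both others. Among the 13284 genes, replicate 1 stood above for 1.54% and below for 2.39%, replicate 2 for 1.02% and 1.21%, and replicate 3 for 0.783% and 1.38%. The counts and names that follow are of 7845 genes with a mean of at least 200. Predicted genes, receptor segments and pseudogenes, such as Gm28661, were left out of them. Of these 7845 genes, replicate 1 stood above for 21 and below for 22. The 21 included 12 major urinary protein genes, Saa1, Saa2, Orm2, Lcn2 (630, 272 and 186), an iron-binding acute phase protein, and Fgl1 (12162, 5006 and 4844), a hepatocyte secreted protein. The 22 below included Cyp4a14, Inmt (7235, 18306 and 19730), a methyltransferase, Slco1a4 (614, 1676 and 1577), an organic anion transporter, Gsta2 (718, 1590 and 1820), Nr4a1 (220, 635 and 520), and the stellate cell genes Colec10 (115, 289 and 284), Colec11 (214, 494 and 437) and Reln (232, 500 and 570). Replicate 2 stood below for 14 such genes, among them Onecut1 (1455, 191 and 1231), a hepatic transcription factor, Cish (504, 146 and 567), a feedback inhibitor of growth hormone signalling, and Alas1 (12247, 5198 and 10857), the first enzyme of haem synthesis. It stood above for 9, among them Bcl6 (534, 1476 and 428), a repressor that is opposed to STAT5 in liver. Replicate 3 stood above for 6, Dmbt1, Socs2 (507, 387 and 1028), also a growth hormone feedback gene, and Hamp2 (145, 171 and 358) among them, and below for 7.

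Lists of genes differed between libraries together. For reference, replicate 1 was the highest library for 32.4% and the lowest for 36.2% of the 13284 genes, replicate 2 for 37.3% and 30.5%, and replicate 3 for 30.3% and 33.3%. All 14 sinusoidal endothelial markers were highest in replicate 2 and lowest in replicate 1. Their summed values were 4062, 7747 and 5722, with Clec4g at 292, 679 and 451 and Kdr, the VEGF receptor, at 167, 445 and 317. Markers of continuous vessels were highest in replicate 2 for 11 of 14 and lowest in replicate 1 for 10. Stellate cell and fibroblast markers were lowest in replicate 1 for 15 of 16 (sums 4601, 7986 and 8107), Dcn holding 1180, 2045 and 2164. Kupffer cell markers were highest in replicate 2 for 13 of 16 and lowest in replicate 3 for 11. Their summed values were 18424, 16302 and 14818, highest in replicate 1. Of these sums the complement gene C6 alone held 10870, 6592 and 7474. Cd5l stood at 438, 658 and 229 and Marco, a scavenger receptor, at 35.9, 62.8 and 10.8. Smooth muscle and portal myofibroblast markers were highest in replicate 3 for 7 of 8. Hepatocyte markers were highest in replicate 1, 2 or 3 for 3, 4 and 5 of 12, and lowest in replicate 1 for 7.

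Among lists of cell state, acute phase genes were highest in replicate 1 for 17 of 20, with summed values of 636777, 493253 and 471800. Hp (haptoglobin) held 97908, 65147 and 53204 and Hpx (haemopexin) 111007, 70358 and 64294. Cell cycle genes were highest in replicate 1 for 20 of 23, at low values: Ccnb1 held 83.3, 9.82 and 3.38, Mcm5 101, 25.5 and 22.3, and Mki67 60.3, 36.2 and 28.7. Male-biased genes were highest in replicate 1 for 18 of 22, a list that includes several major urinary protein genes, and female-biased genes lowest there for 11 of 14. Core clock genes were highest in replicate 2 for 13 of 18 and lowest in replicate 1 for 13. Periportal genes were lowest in replicate 1 for 14 of 19, and perivenous genes lowest in replicate 3 for 9 of 19. Feeding-induced genes were highest in replicate 3 for 10 of 17. Acute phase, cell cycle, sex-biased, clock and periportal genes set replicate 1 apart, as did the endothelial and stellate markers and the depth. Perivenous and feeding-induced genes stood apart mainly in replicate 3, whose depth was near that of replicate 2. The part of cell type markers or depth in all these lists was not tested.

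**Figure D5:**
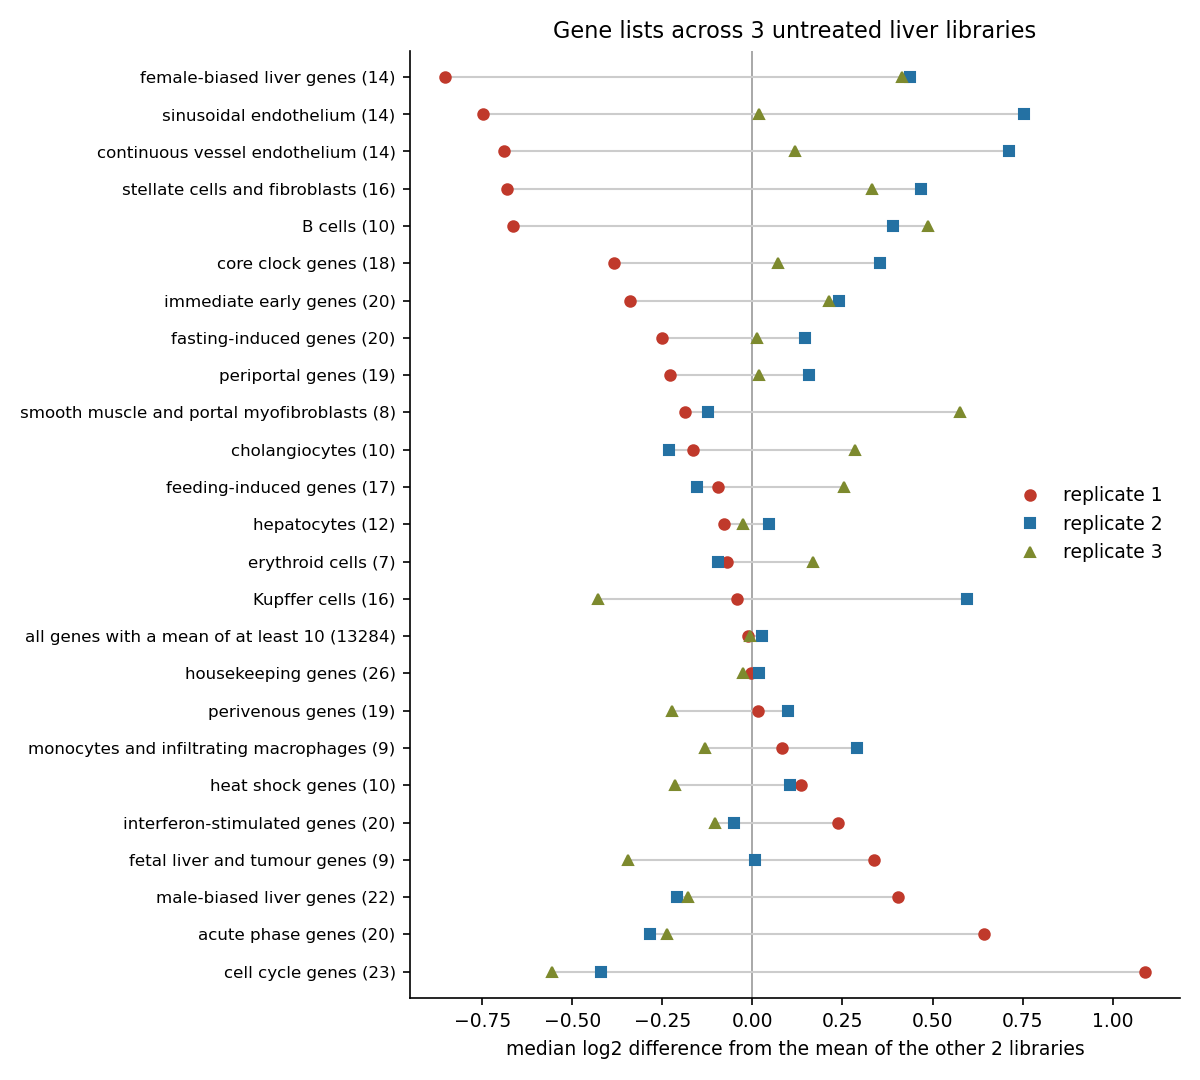
Median over the genes of each list of the log2(value + 1) difference between a library and the mean of the other 2, for lists with at least 7 genes with a mean of at least 10 (number in brackets), a point for each untreated library. Replicate 1 is lowest for female-biased genes (-0.85), sinusoidal endothelium (-0.75), continuous vessels (-0.69) and stellate cells (-0.68) and highest for cell cycle (1.09) and acute phase genes (0.64), while housekeeping genes stay near 0.

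On the log2 scale, the median difference of a library from the mean of the others was -0.01, 0.03 and -0.01 over all 13284 genes, and it was 0.02 and -0.03 in replicates 2 and 3 over housekeeping genes, with the value of replicate 1 nearer to 0. Sinusoidal endothelial markers stood at -0.75, 0.75 and 0.02 in replicates 1, 2 and 3, stellate markers at -0.68, 0.47 and 0.33, and Kupffer markers at -0.04, 0.59 and -0.43. Acute phase genes stood at 0.64, -0.28 and -0.24, cell cycle genes at 1.09, -0.42 and -0.56, and core clock genes at -0.38, 0.35 and 0.07. With the libraries scaled to equal totals, the median of all genes moved to -0.24, 0.13 and 0.11, the total of replicate 1 being the largest. Every list of replicate 1 moved down by a similar amount, so that only lists near 0 changed sign. The values became -0.98 for sinusoidal endothelium, 0.86 for cell cycle, 0.42 for acute phase and 0.18 for male-biased genes. Of the lists with at least 7 such genes, those whose sign changed were markers of monocytes and infiltrating macrophages (0.08 and then -0.13), heat shock genes (0.14 and then -0.09) and perivenous genes (0.02 and then -0.21).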

How the data were processed

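Messenger RNA was measured in 8 mouse liver libraries, of which the 3 untreated ones were used; poly-A selection and paired-end sequencing are given per the labels' protocols. The deposited values are a signal, gene counts that the authors divided by scaling factors, with DESeq2 and the mm10 build, per the submitters' processing notes. The table's own name gives kallisto. Tool versions, transcript annotation and filters: not given in the sources used here. Matching to GENCODE M21 (GRCm38) found 34709 symbols directly and 305 by synonym. The other 190, with 0.0466% of the signal, have no length. Values were summarised with Python 3.11.15, pandas 2.3.3 and numpy 2.4.6, and the functions were tested on simulated data. Levels divide by the principal transcript length, chosen after the median length proved too short for some genes; the median length was kept for genes called on and for choosing names. Spread used genes with a mean of at least 10 and a pseudocount of 1. Only 1 group was used, so no p-value was computed.

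The lists, categories and members were chosen with earlier results of these data known. Named genes were the 25 highest levels, the 10 largest values, the 2 highest of each category and list, list markers at 0, the 15 largest and 10 smallest CVs (mean of at least 200; predicted genes, receptor segments and pseudogenes left out), all sex chromosome, clock and immediate early genes, 5 genes on each side of the threshold and 5 noncoding genes. Other members of categories and lists, and genes that stood apart in 1 library, were named after their values were seen. The motifs other than TATAAA were also added then.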

Additional observations from a re-analysis of the deposited data

How the results depend on the processing

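The share of the 100 largest genes (56.7%) was 42.8% without major urinary protein and mitochondrial genes, 64.3% of the level per median length and 70.5% per principal length, the last chosen after the data were seen. Leaving out 1 library gave 54.4% to 57.9%. Genes on numbered 6625 at 5 TPM against 9956 at 1; longest, union and principal lengths, a threshold of 0.5, a value of at least 10, a total without those 2 groups and leaving out a library kept the number within 9384 to 12470. Genes at 0 numbered 16544 to 16806 with 1 library left out. The median CV (12.1%) was 10.2% for a mean of at least 50, 20.1% for every gene above 0, 15.3% with equal totals and 9.78% to 10.6% with 1 library left out. The mean Spearman correlation (0.985) was 0.982 for a mean of at least 50 and 0.973 for every gene above 0, and the mean Pearson correlation (0.974) was 0.981 with a pseudocount of 5. The share in all categories (74.3%) was 64.0% without those 2 groups, 78.8% by level per median length, and 72.9% to 75.1% with 1 library left out. TATAA was found in 15% of the top 100 promoters, against 7% for TATAAA. Of the alternatives for single categories, 55 moved the share by more than 1 SD and 113 did not. Leaving out 1 of 3 libraries cannot move a mean by that much, so all such alternatives are among the 113. Of the alternatives for ranks, 41 moved the rank by more than 1 SD and 34 did not. No paired analysis was possible because only 1 group of libraries was used. With 3 libraries, depths of 18.6 to 24.9 M reads limit values under 50 most.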
